A study of Mus musculus with 9 samples.

Results

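Collagens and laminins are the main structural proteins outside cells. The 54 genes described here encode their chains: 43 collagen chains and 11 laminin chains, of 24012 genes in the table. Membership was by symbol alone: Col, a number, a and a number, or Lama, Lamb or Lamc and a digit. Collagen chains wind in threes into a triple helix, and chemically modified prolines hold the helix together. Fibrillar collagens build the tensile fibres of the interstitium, collagen IV builds the sheet of the basement membrane under epithelia and around vessels, and collagen VI forms beaded filaments between both. Laminins are cross-shaped trimers of an alpha, a beta and a gamma chain, to which cells bind through integrins and dystroglycan. Pancreatic ductal adenocarcinoma is known for a dense collagen-rich stroma, much of it made by fibroblasts, while carcinoma cells themselves are known sources of basement membrane chains.

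The cells were mouse pancreatic ductal adenocarcinoma cells that carry GFP and a Gstt1-mCherry reporter, labelled as metastatic cells of the lung and recovered after tail vein injection. Groups were mCherryLow and mCherryHigh, sorted on GFP and mCherry at 6 weeks, and DTC, sorted on GFP alone at 5 days, with 3 libraries in each. Every group had the genotype SIRT6F/F/p48-Cre/p53F/+KrasL/+, in which Cre is driven from a pancreatic progenitor gene, so no group without these alleles is in the comparisons. Time, sort and group change together between DTC and the other groups and cannot be told apart. Nothing in the labels ties a library to a mouse or says how many cell clones were injected, so the spread between libraries may be technical.

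RNA was measured as CPM, the reads of a gene scaled to a common library total of 1000000. Libraries held 643748 to 11861241 reads, and 3 reads, taken here as the bound for a count of 0, stand for 0.253 to 4.66 CPM. Gstt1, the gene of the reporter, was at 11.9 to 29.4 CPM in mCherryLow, 48.4 to 60.6 in mCherryHigh and 6.09 to 11.2 in DTC. Markers of ductal tumour cells (8 of 8 found, keratins among them) summed to 1799.9 to 2582 CPM in mCherryLow. In mCherryHigh they summed to 5959 in library 1 and to 2130.2 and 2181 in libraries 5 and 6. In DTC they summed to 5362 and 6065 in libraries 1 and 2 and to 463 in DTC 3, which stood apart. Krt8 and Krt18 weighed most in DTC 1 and 2, with 1429 and 3014 CPM in DTC 1. Against mCherryLow the DTC difference was above 0 for 5 markers and below 0 for 3 (Krt19, Cdh1 and Epcam). Krt19 averaged 1096 CPM in mCherryLow and 552 in DTC. Markers of endothelium (10 of 10 found) summed to 17.1 to 33.9 CPM in mCherryLow, 34.2 to 60.6 in mCherryHigh and 257 to 579 in DTC. Leukocyte markers (10 of 10) summed to 299 to 547, 402 to 713 and 2868 to 7279 CPM in the same order, with Cd3e at 0 in every mCherryLow library. Fibroblast and pericyte markers (9 of 10) summed to 47.1 to 98.3, 123 to 152 and 89.2 to 179.6 CPM. Alveolar and airway markers (9 of 9) summed to 13.7 to 31.4, 26.4 to 58.4 and 167 to 511 CPM, with Sftpd at 0 in every mCherryHigh library. Mesothelial markers (4 of 4) summed to 5.65 to 238, 4.66 to 137 and 88.7 to 468 CPM. The upper ends were mostly Msln alone, at 237 CPM in mCherryLow 5, 134 in mCherryHigh 5 and 418 in DTC 2. In mCherryHigh 1, the shallowest library, 25 of the 54 chains had 3 reads or fewer. In sorted bulk cells, fewer cells of a type and less RNA per cell cannot be told apart, and the part of these other cells in any result below was not tested.

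For 5 chains on which the results turn, the promoter is shown: the 250 bases before the start of transcription, 5′ to 3′ on the strand of the gene, from RefSeq on GRCm38.p6 (the reads had been mapped to mm9). Col1a2 and Col27a1 were higher in DTC than in either other group, Lamb3 was lower, and Col6a1 and Col4a5 were the chains that DESeq2 called between mCherryHigh and mCherryLow. Capitals mark CCAAT (the core of an NF-Y site), GGGCGG (a GC box, bound by Sp1) and TGANTCA (an AP-1 site). The windows are chr6:4505368-4505617 for Col1a2, chr4:63215162-63215411 for Col27a1 and chr1:193301744-193301993 for Lamb3 (the more upstream of its 2 starts), all on the plus strand. Those of Col6a1, on the minus strand, and Col4a5, on the plus strand, are chr10:76726045-76726294 and chrX:141475169-141475418.
Col1a2: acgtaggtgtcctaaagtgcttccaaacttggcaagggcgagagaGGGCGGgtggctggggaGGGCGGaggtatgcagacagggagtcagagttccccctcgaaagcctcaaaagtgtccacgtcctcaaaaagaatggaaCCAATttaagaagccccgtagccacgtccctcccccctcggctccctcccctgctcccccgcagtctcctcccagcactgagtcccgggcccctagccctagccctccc
Col27a1: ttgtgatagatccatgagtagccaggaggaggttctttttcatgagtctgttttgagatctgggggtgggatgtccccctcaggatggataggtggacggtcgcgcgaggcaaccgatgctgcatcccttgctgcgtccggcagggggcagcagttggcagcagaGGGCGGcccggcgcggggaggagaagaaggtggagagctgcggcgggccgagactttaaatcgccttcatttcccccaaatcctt
Lamb3: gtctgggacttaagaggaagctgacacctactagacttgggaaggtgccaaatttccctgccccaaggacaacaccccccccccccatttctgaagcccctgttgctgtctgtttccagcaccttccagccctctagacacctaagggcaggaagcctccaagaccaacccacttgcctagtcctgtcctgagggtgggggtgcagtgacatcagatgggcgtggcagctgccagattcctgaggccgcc
Col6a1: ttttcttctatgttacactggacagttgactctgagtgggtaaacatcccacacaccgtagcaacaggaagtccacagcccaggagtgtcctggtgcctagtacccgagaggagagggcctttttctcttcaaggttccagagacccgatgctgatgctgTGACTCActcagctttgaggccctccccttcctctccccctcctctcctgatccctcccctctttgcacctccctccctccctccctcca
Col4a5: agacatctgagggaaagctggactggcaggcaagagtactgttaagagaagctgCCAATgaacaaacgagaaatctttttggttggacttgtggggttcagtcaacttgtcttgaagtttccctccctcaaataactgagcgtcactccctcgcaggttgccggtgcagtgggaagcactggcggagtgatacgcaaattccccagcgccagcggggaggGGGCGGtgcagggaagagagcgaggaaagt
The GC box occurred 2 times in the Col1a2 window, with first letters 205 and 188 bases before the start, and CCAAT 109 bases before it. In Col27a1 a GC box began 85 bases before the start, and in Col4a5 CCAAT began at 196 and a GC box at 30. The Col6a1 window held TGACTCA, 90 bases before the start, and the Lamb3 window held none of these motifs. Promoter windows were found for 40 of the 54 chains, 44 windows in all, and motifs were counted in the 250 bases before the start. Read on both strands, GGGCGG was in 54.5% of the windows of the chains and 32.7% of all 32851 windows, CCAAT in 31.8% and 33.8%, TATAAA in 11.4% and 12.4%, and TGANTCA in 2.27% and 6.75%. A match describes the letters only.

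Summed over all 54 chains, the family took 1783 ± 571 CPM in mCherryLow, 2798 ± 581 in mCherryHigh and 2081 ± 619 in DTC (mean ± SD, n = 3). The order of the groups was not the same for each class. Laminins stood at 683 ± 299, 1148 ± 203 and 487 ± 229 CPM in these groups, lowest in DTC. Collagen VI stood at 48.2 ± 23.6, 185 ± 75.2 and 294 ± 112 CPM, and collagen IV at 452 ± 119, 573 ± 151 and 240.1 ± 71.6 CPM. The mean was highest in DTC for 35 chains, in mCherryHigh for 17 and in mCherryLow for 2 (Lamb1 and Col4a2).

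**Figure D1:**
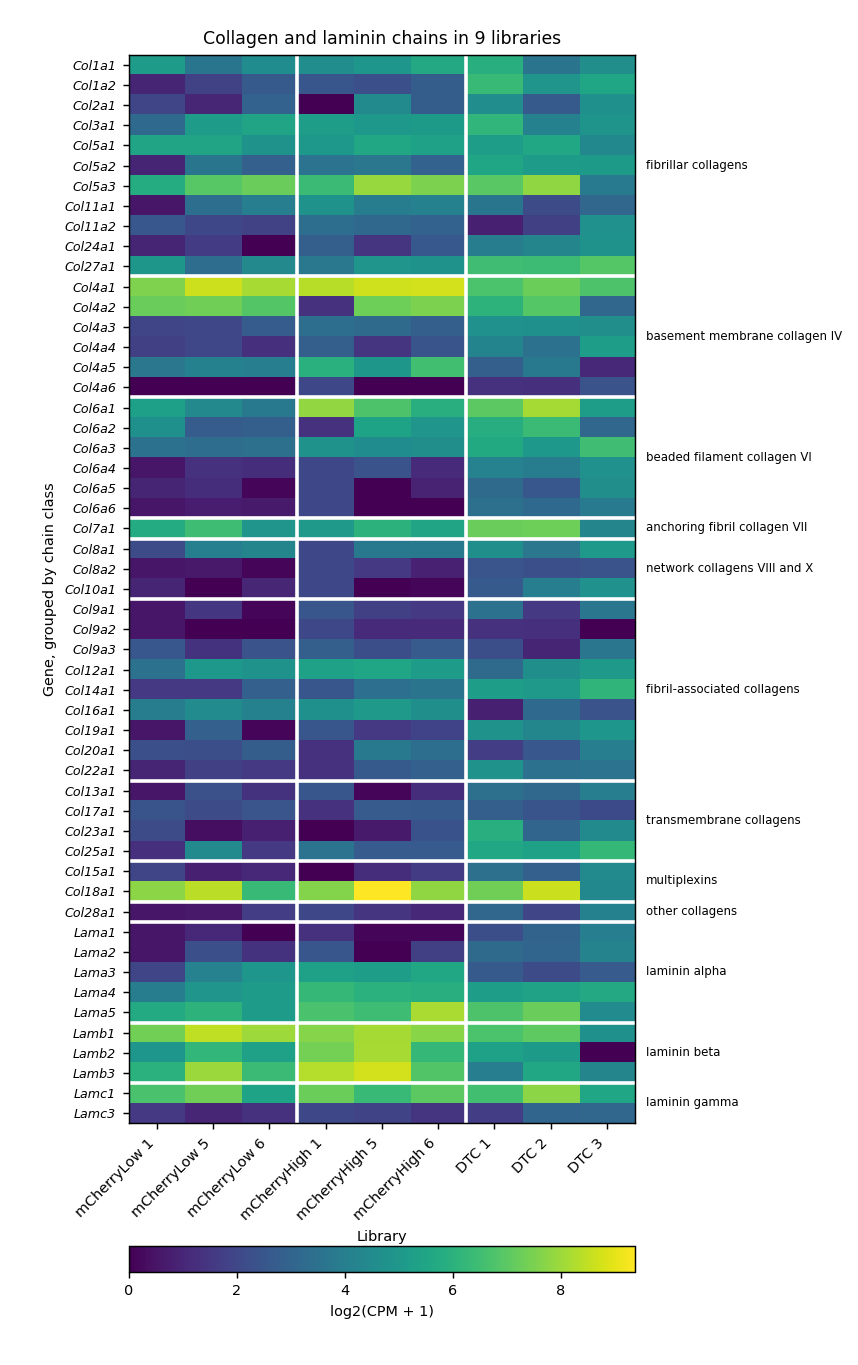
Level of 53 of the chains, as log2(CPM + 1), in the 9 libraries (columns), with genes (lines of the map) grouped by chain class. Many weakly read chains are brighter in all 3 DTC libraries, while Lamb1, Lamb3 and Col4a1 are darker there.

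In DTC compared with mCherryLow, 26 of the 53 chains tested rose and 4 fell (limma on log2(CPM + 1), adjusted p under 0.05). Of all 18701 genes tested, 34.2% were called higher and 8.87% lower. By overlap, the DTC libraries lay wholly above the mCherryLow libraries in 26 chains (39.0% of all genes) and wholly below in 4 (14.2%). These 26 are not all the chains called: Col6a1 and Col2a1 were called with overlapping groups, and Lama4 and Lamc3 were separate and not called. The median difference of the chains was 1.68 on the log2 scale and that of all genes 0.59, a gap of 1.09. Col4a6 was at 0 in all mCherryLow libraries, and with it set at its bound (3 reads over the group) the median of the chains was 1.52. Of the 53 chains, 31 lay above the median of all genes. The gap was smaller at like levels. With a mCherryLow mean under 5 CPM the medians were 2.385 for the chains and 2.191 for all genes. At 5 CPM or more they were 0.261 and -0.2625. Without DTC 3, 20 chains were called higher and 3 lower (20.5% and 7.4% of all genes), and without DTC 1, 17 and 1 (18.5% and 4.34%). After quantile normalization, which removes the shift of the whole table, 5 of 53 chains were called higher and 4 lower, where 12.1% and 10.9% of all genes were.

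Against mCherryHigh, 17 of 54 chains were higher in DTC and 7 lower by the same test, where 23.0% and 7.19% of all 19700 genes were called. By overlap, 21 chains lay wholly above (31.4% of all genes) and 10 wholly below (13.2%). Median differences were 0.88 for the chains and 0.55 for all genes. With a mCherryHigh mean under 5 CPM the medians were 2.073 for the chains and 1.783 for all genes. At that level 12 of 21 chains (57.1%) and 43.3% of all genes were called higher. At 5 CPM or more the medians were -0.2712 and -0.169, both below 0. There 7 of 33 chains (21.2%) and 12.1% of all genes were called lower. Without DTC 3 the counts were 7 and 6 (12.7% and 5.69% of all genes), without DTC 1 they were 6 and 5 (10.8% and 3.25%), and without mCherryHigh 1, 19 and 7 (29.2% and 8.45%). With quantile normalization 3 chains were called higher and 8 lower, where 8.2% and 7.79% of all genes were. edgeR called 8 chains higher and 7 lower, where it called 15.9% and 10.8% of all genes, so these counts lie near the shares of the whole table. DTC is in both comparisons, so their counts are not independent. Up to 15 alternatives were run for each called chain, and none gave the opposite sign. Of 30 chains called against mCherryLow, 4 were called in every alternative, and of 24 against mCherryHigh, 7. The losses given below for single chains are mostly those on leaving out a library, and other alternatives lost further calls.

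Between mCherryHigh and mCherryLow no chain was called in either direction among 47 tested, and 0.0% of all 15437 genes were called higher and 0.0% lower by limma. At an unadjusted p under 0.05 there were 9 chains, all higher in mCherryHigh, where 6.08% of all genes were higher and 3.3% lower at that threshold. Differences were above 0 for 40 chains and below 0 for 7, with a median of 0.61 against 0.09 for all genes. In 13 chains the lowest mCherryHigh value exceeded the highest mCherryLow value, and in 0 chains the reverse held, against 10.2% and 5.78% of all genes. edgeR called 0 chains, and DESeq2 called 2 higher, Col6a1 and Col4a5, where it called 0.317% of all genes higher.

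**Figure D2:**
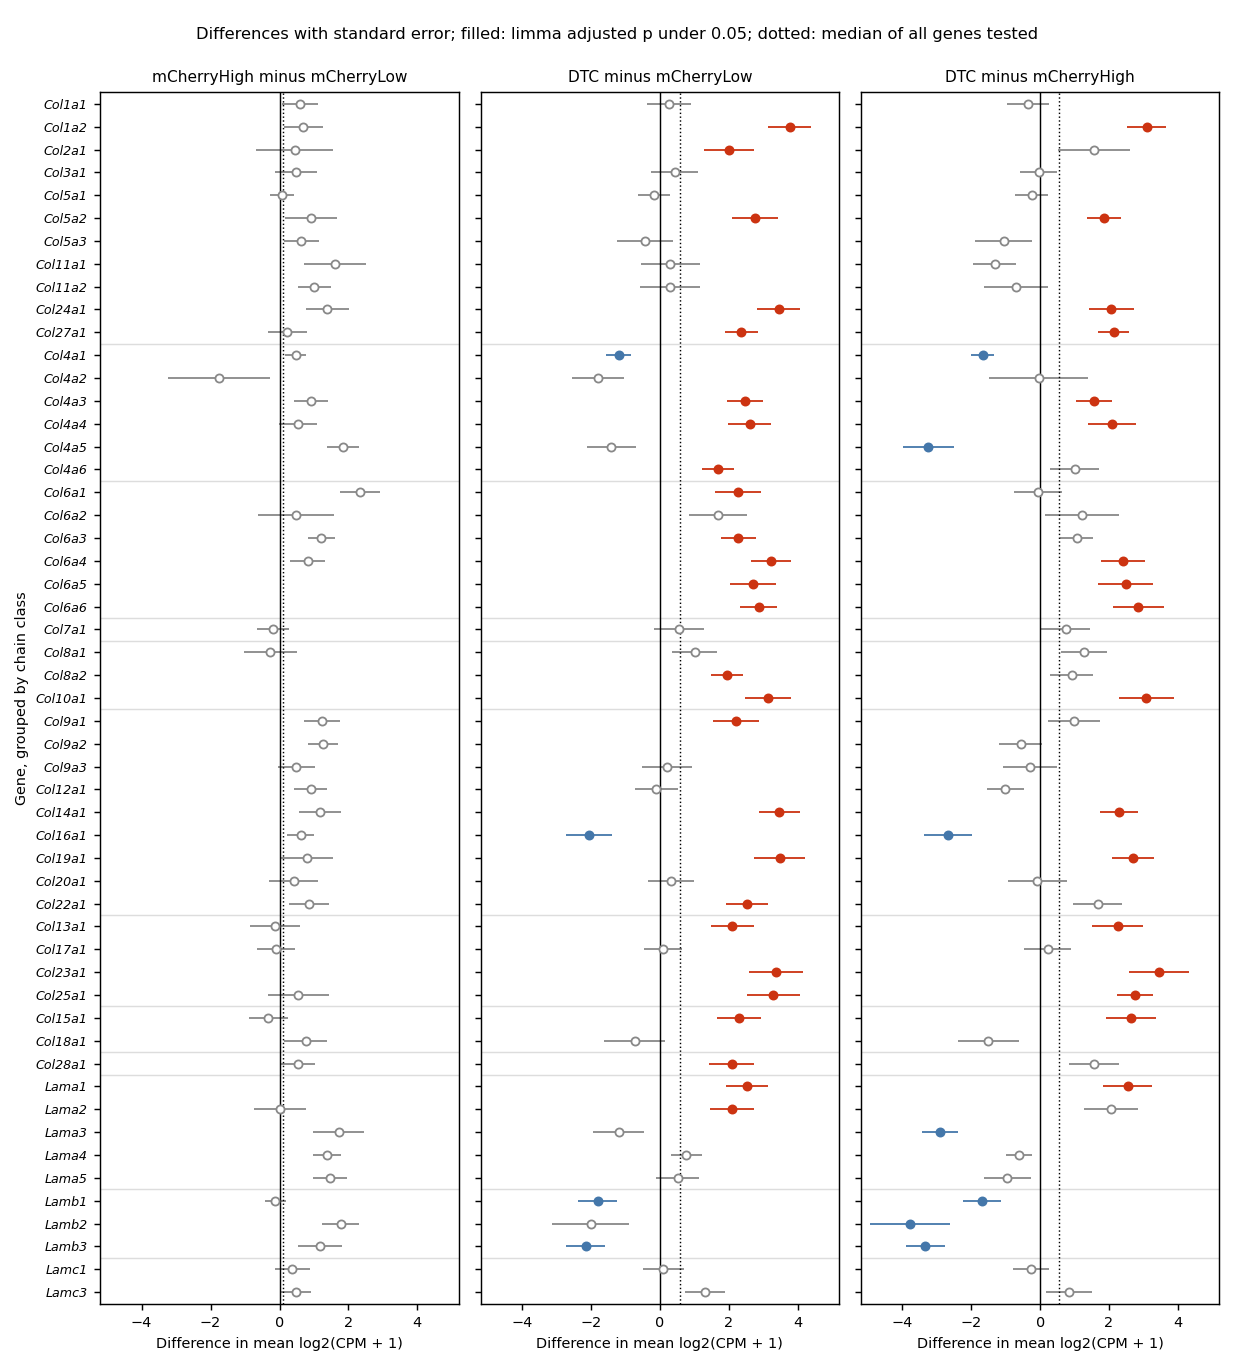
Difference in mean log2(CPM + 1) for 53 of the chains, where tested, in the 3 comparisons, with its standard error; red and blue filled points passed limma as higher and lower, open points did not, and the dotted line is the median of all genes tested. In the first panel no point is filled, while the DTC panels hold 26 red and 4 blue and 17 red and 7 blue points.

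The fibrillar collagens are the fibre-forming class, and 5 of 11 rose in DTC against mCherryLow (34.2% of all genes). Of these 5, 4 were also higher than in mCherryHigh (23.0% of all genes), and no fibrillar chain was called lower. Among genes with a mCherryLow mean under 5 CPM, 66.9% of all were called higher. Counts by class, here and below, are descriptions only. Values of a group follow its libraries, 1, 5 and 6 for the mCherry groups and 1, 2 and 3 for DTC. Col1a2, the second chain of type I collagen, was at 0.975, 2.63 and 5.23 CPM in mCherryLow, 4.66, 3.88 and 5.73 in mCherryHigh, and 81.4, 28.7 and 45.5 in DTC. Every DTC library was above every other library. The difference was 3.77 (SE 0.62) against mCherryLow (adjusted p = 0.000972) and 3.09 (SE 0.57) against mCherryHigh (adjusted p = 0.00398), and the call held under all 15 alternatives in both. Col1a1, its partner chain, was at 35.1, 11.4 and 22.5 CPM in mCherryLow, 23.3, 29.1 and 49.2 in mCherryHigh, and 58.6, 11.2 and 23.8 in DTC, with all groups overlapping, and its differences of 0.26 and -0.34 did not pass. Col27a1, a fibrillar collagen of cartilage, was at 30.2, 9.11 and 20.3 CPM in mCherryLow, 12.4, 28.8 and 26.2 in mCherryHigh, and 89.0, 84.8 and 118 in DTC. DTC stood clear of both groups, by 2.36 (SE 0.48, adjusted p = 0.00247) and 2.13 (SE 0.45, adjusted p = 0.00634), also under all alternatives. Col5a2, a chain of the collagen V that nucleates type I fibres, was at 0.975, 11.5 and 6.41 CPM in mCherryLow, 10.9, 12.1 and 6.75 in mCherryHigh, and 45.7, 34.1 and 33.6 in DTC. Its differences were 2.76 (SE 0.68) and 1.85 (SE 0.50) (adjusted p = 0.00672 and 0.0188).

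Col24a1, another fibrillar chain, was at 0.975, 2.16 and 0 CPM in mCherryLow, 6.21, 1.63 and 4.91 in mCherryHigh, and 14.5, 18.0 and 27.1 in DTC, and rose by 3.46 (SE 0.62) over mCherryLow and 2.07 (SE 0.65) over mCherryHigh. Col2a1, the chain of cartilage fibrils, was at 2.93, 1.03 and 6.66 CPM in mCherryLow, 0, 21.2 and 5.83 in mCherryHigh, and 22.8, 5.36 and 24.9 in DTC. Its groups overlapped, and the call against mCherryLow (2.00, SE 0.73, adjusted p = 0.0438) was lost on leaving out mCherryLow 1, mCherryLow 5, DTC 1 or DTC 3 (adjusted p 0.0802 to 0.173). This call passed in 5 of 15 alternatives. The Col24a1 call against mCherryHigh was lost without any of 5 libraries, all but mCherryHigh 1 (adjusted p 0.0651 to 0.124), and that of Col5a2 without mCherryHigh 6 or DTC 1 (adjusted p 0.0651 and 0.1).

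Other fibrillar chains were not called in any comparison. Col3a1, the chain of reticular fibres, was at 8.29, 35.5 and 43.6 CPM in mCherryLow, 35.7, 30.8 and 33.6 in mCherryHigh, and 70.8, 16.6 and 28.1 in DTC. Col5a1, the main collagen V chain, was at 42.9, 43.1 and 27.2 CPM in mCherryLow, 31.1, 47.4 and 40.0 in mCherryHigh, and 37.3, 47.3 and 19.5 in DTC, and overlapped throughout. Col5a3, its rarer relative, was at 54.6, 122 and 149 CPM in mCherryLow, 82.3, 245 and 184 in mCherryHigh, and 125, 222 and 14.1 in DTC. DTC 3 was the lowest library for Col5a3 and for Col5a1, below DTC 1 and 2. Col11a1, a fibril nucleator often named as a marker of carcinoma-associated fibroblasts, was at 0.488, 9.58 and 15.1 CPM in mCherryLow, 26.4, 14.2 and 16.6 in mCherryHigh, and 11.4, 3.41 and 7.58 in DTC. All DTC libraries lay below all mCherryHigh libraries for Col11a1, with a difference of -1.32 (SE 0.62), which did not pass limma (adjusted p = 0.130). Col11a2 stayed between 0.761 and 26.0 CPM.

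Collagen IV makes the basement membrane sheet, and its 6 chains are encoded in 3 head-to-head pairs of genes. In DTC, Col4a1 fell, Col4a3, Col4a4 and Col4a6 rose against mCherryLow, and Col4a5 fell against mCherryHigh. Col4a1, the chain of nearly all basement membranes, was at 188, 400.4 and 279 CPM in mCherryLow, 326, 411 and 420.2 in mCherryHigh, and 105, 152 and 107 in DTC. Every DTC library was below every other library. Col4a1 fell in both comparisons, with differences of -1.20 (SE 0.37) from mCherryLow (adjusted p = 0.0220) and -1.67 (SE 0.33) from mCherryHigh (adjusted p = 0.00528). Col4a2, its partner, was at 150.2, 162 and 115 CPM in mCherryLow, 1.55, 157 and 182 in mCherryHigh, and 65.5, 117 and 7.58 in DTC. Here 1 read in mCherryHigh 1 and 7 reads in DTC 3 stood against 210 and 99 reads of Col4a1, and no comparison of Col4a2 passed. Exons of Col4a1 and Col4a2 overlap on opposite strands, and the strand setting of the counting is not known, so reads there cannot be told apart. The same holds for exons of Lama2, Lama3, Col5a1, Col15a1, Col6a4, Col6a6, Col22a1 and Col4a3, each of which overlaps another gene on the opposite strand. Without mCherryLow 5, mCherryLow 6 or DTC 1 the Col4a1 call against mCherryLow was lost (adjusted p 0.0598 to 0.0984), while that against mCherryHigh held under all 15 alternatives.

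Col4a3, of the kidney and lung basement membrane, was at 2.93, 3.00 and 5.56 CPM in mCherryLow, 9.32, 8.37 and 6.14 in mCherryHigh, and 25.9, 25.3 and 23.8 in DTC. Its differences were 2.47 (SE 0.53) and 1.56 (SE 0.52) (adjusted p = 0.00353 and 0.0440). Col4a4, the neighbour that pairs with it, was at 2.44, 3.00 and 1.43 CPM in mCherryLow, 6.21, 1.63 and 4.40 in mCherryHigh, and 17.5, 10.2 and 35.7 in DTC. Both were separate from both groups, and Col4a4 rose by 2.61 (SE 0.62) over mCherryLow and 2.07 (SE 0.70) over mCherryHigh. Against mCherryHigh these calls were lost without mCherryHigh 5, mCherryHigh 6, DTC 1 or DTC 3 (adjusted p 0.0802 to 0.148), and for Col4a3 also without DTC 2 (adjusted p = 0.101).

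Col4a5, the X-linked chain lost in Alport syndrome, was at 12.2, 16.4 and 15.3 CPM in mCherryLow, 60.6, 29.7 and 90.9 in mCherryHigh, and 6.09, 12.7 and 1.08 in DTC. The 3 mCherryHigh libraries were above all 6 others. Col4a5 fell in DTC, with a difference of -3.25 (SE 0.74) from mCherryHigh (adjusted p = 0.00881), under all alternatives. Its difference between mCherryHigh and mCherryLow was 1.85 (SE 0.47), with an unadjusted p of 0.00489 and an adjusted p of 0.444 in limma. Col4a6, which shares a promoter region with Col4a5, was at 0, 0 and 0 CPM in mCherryLow, 3.11, 0 and 0 in mCherryHigh, and 1.52, 1.46 and 4.33 in DTC. The DTC values of Col4a6 are 2, 3 and 4 reads. Their mean was at least 19.96-fold the 0.122 CPM that 3 reads over the 3 mCherryLow libraries make. The difference was called (adjusted p = 0.0117), but not without mCherryLow 6 (adjusted p = 0.0501). Per kilobase of transcript, Col4a6 was at 0.367 CPM in DTC. Olfactory receptor genes, read as a comparison below, were at 2.62 CPM per kb in DTC and 0.106 in mCherryLow.

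Collagen VI forms beaded filaments from alpha 1, alpha 2 and a further chain, and 5 of its 6 chains rose in DTC against mCherryLow. Of all genes 34.2% rose. With a mCherryLow mean under 5 CPM, as for Col6a4, Col6a5 and Col6a6, 66.9% of all genes did. No collagen VI chain was called lower in any comparison. Col6a1 was at 38.0, 20.5 and 12.7 CPM in mCherryLow, 227, 108 and 59.7 in mCherryHigh, and 129, 275 and 35.7 in DTC. Every mCherryHigh library was above every mCherryLow library, while DTC 3 lay below DTC 1, DTC 2 and mCherryLow 1. In mCherryHigh Col6a1 was higher than in mCherryLow by 2.34 (SE 0.57), with an unadjusted p of 0.00386 and an adjusted p of 0.444 in limma. DTC was 2.28 (SE 0.67) above mCherryLow (adjusted p = 0.0164), a call lost without DTC 1 or DTC 2 (adjusted p 0.0745 and 0.0793).

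Col6a2, the obligate partner from the neighbouring gene, was at 24.9, 5.63 and 6.07 CPM in mCherryLow, 1.55, 41.9 and 28.8 in mCherryHigh, and 55.6, 83.3 and 7.58 in DTC, with no call. As for Col4a2, mCherryHigh 1 had 1 read of Col6a2, against 146 of Col6a1. Col6a3, the long chain of the standard filament, was at 10.2, 9.30 and 9.95 CPM in mCherryLow, 26.4, 22.4 and 23.7 in mCherryHigh, and 50.2, 30.7 and 88.7 in DTC. The 3 groups did not overlap, in the order mCherryLow, mCherryHigh, DTC. Only the step from mCherryLow to DTC passed (2.28, SE 0.50, adjusted p = 0.00387, under all alternatives), while the steps of 1.22 and 1.07 around mCherryHigh had adjusted p of 0.486 and 0.114.

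Col6a4, Col6a5 and Col6a6 are adjacent genes for alternatives to Col6a3. Col6a4 was at 0.488, 1.50 and 1.35 CPM in mCherryLow, 3.11, 4.29 and 1.23 in mCherryHigh, and 16.7, 14.1 and 26.0 in DTC. Col6a5 was at 0.975, 1.31 and 0.0843 CPM in mCherryLow, 3.11, 0 and 0.920 in mCherryHigh, and 8.37, 4.87 and 23.8 in DTC. Col6a6 was at 0.488, 0.657 and 0.590 CPM in mCherryLow, 3.11, 0 and 0 in mCherryHigh, and 9.89, 8.28 and 14.1 in DTC. All 3 were above both groups in every DTC library and were called in both comparisons, with differences of 3.23, 2.70 and 2.87 from mCherryLow and 2.41, 2.48 and 2.85 from mCherryHigh. Against mCherryHigh, 31.4% of all genes lay wholly above and 23.0% were called higher. With a mCherryHigh mean under 5 CPM, as for these 3, 43.3% of all genes were called higher. The calls against mCherryHigh were lost for Col6a4 without mCherryHigh 6, DTC 1 or DTC 3, and for Col6a5 and Col6a6 also without mCherryHigh 5 (adjusted p 0.0531 to 0.135 for the 3 genes).

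Among collagens that bind to fibrils (9 chains, 8 tested against mCherryLow), 4 rose and 1 fell, where 34.2% and 8.87% of all genes did. The 4 had a mCherryLow mean under 5 CPM, a level at which 66.9% of all genes rose. Col14a1, which coats type I fibrils, was at 1.95, 1.97 and 6.41 CPM in mCherryLow, 4.66, 9.69 and 11.2 in mCherryHigh, and 36.5, 32.2 and 69.3 in DTC. DTC was clear of both groups, 3.46 (SE 0.59) above mCherryLow (adjusted p = 0.00113, under all alternatives) and 2.29 (SE 0.56) above mCherryHigh (adjusted p = 0.0116, but 0.0506 without DTC 3). Col19a1, a chain of basement membrane zones, was at 0.488, 6.38 and 0.0843 CPM in mCherryLow, 4.66, 1.94 and 2.66 in mCherryHigh, and 26.6, 18.5 and 29.2 in DTC. It rose by 3.47 (SE 0.74) and 2.69 (SE 0.61), with adjusted p of 0.00328 and 0.00863 (0.0504 for the latter without DTC 1). Col22a1, of tissue junctions, was at 0.975, 2.44 and 1.94 CPM in mCherryLow, 1.55, 5.31 and 6.34 in mCherryHigh, and 27.4, 10.2 and 10.8 in DTC, and passed against mCherryLow alone (2.52, SE 0.61, adjusted p = 0.00634). Col9a1, a cartilage chain, was at 0.488, 1.78 and 0.0843 CPM in mCherryLow, 4.66, 2.45 and 1.94 in mCherryHigh, and 10.7, 1.95 and 11.9 in DTC. The difference from mCherryLow of 2.21 (SE 0.68, adjusted p = 0.0208) was not called without mCherryLow 6, DTC 1 or DTC 3 (adjusted p 0.0828 to 0.101). Nor was it called by edgeR or DESeq2 (adjusted p = 0.0858 and 0.0522).

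Col16a1, which links fibrils to cells, went the other way, at 14.6, 22.0 and 16.5 CPM in mCherryLow, 24.9, 33.0 and 24.4 in mCherryHigh, and 0.761, 8.28 and 4.33 in DTC. All DTC libraries were below all others. It fell in both comparisons, with differences of -2.06 (SE 0.68) from mCherryLow and -2.67 (SE 0.70) from mCherryHigh and adjusted p of 0.0280 and 0.0165. The first call was lost without mCherryLow 5, mCherryLow 6, DTC 1 or DTC 3 (adjusted p 0.053 to 0.149) and the other without mCherryHigh 5 or DTC 1 (0.0593 and 0.0698). Col12a1, of dense connective tissue, was at 10.2, 31.2 and 26.2 CPM in mCherryLow, 40.4, 44.0 and 33.8 in mCherryHigh, and 8.37, 24.4 and 32.5 in DTC. Every mCherryHigh library was above every other library for Col12a1, with no call. Col9a2, Col9a3 and Col20a1 lay between 0 and 15.2 CPM in all libraries and were not called.

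Network collagens form lattices under endothelia and in growing cartilage. Col10a1, the hypertrophic cartilage chain, was at 0.975, 0 and 1.01 CPM in mCherryLow, 3.11, 0 and 0.102 in mCherryHigh, and 5.33, 15.1 and 26.0 in DTC. It rose by 3.14 (SE 0.66) and 3.08 (SE 0.81) (adjusted p = 0.00308 and 0.0163), the latter not without mCherryHigh 5, mCherryHigh 6 or DTC 3 (adjusted p 0.0559 to 0.0632). The gene overlaps exons of Nt5dc1 on the other strand, and their reads there cannot be told apart. Col8a2 was at 0.488, 0.563 and 0.0843 CPM in mCherryLow, 3.11, 1.94 and 0.818 in mCherryHigh, and 4.57, 3.90 and 4.33 in DTC. In DTC these are 4 to 8 reads a library, and the difference from mCherryLow passed (1.95, SE 0.47, adjusted p = 0.00640). It was lost with quantile normalization (0.04, adjusted p = 0.951), with DESeq2 (adjusted p = 0.0542) and with depth cut to the shallowest library (adjusted p = 0.0653). Col8a1, of vessel walls, was at 3.41, 15.3 and 18.1 CPM in mCherryLow, 3.11, 13.0 and 12.9 in mCherryHigh, and 24.4, 12.2 and 32.5 in DTC, and Col7a1, which anchors the epidermal basement membrane, at 53.6, 86.3 and 28.8 CPM in mCherryLow, 32.6, 64.3 and 43.7 in mCherryHigh, and 148, 156 and 18.4 in DTC. Neither was called, and DTC 3 was far below DTC 1 and 2 for Col7a1.

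Transmembrane collagens sit in the cell surface and shed their outer part, and 3 of 4 were higher in DTC in both comparisons. Of all genes, 34.2% were called higher against mCherryLow and 23.0% against mCherryHigh. Among the 3, Col13a1 and Col23a1 had means under 5 CPM in both mCherry groups. At that level 66.9% of all genes were called higher against mCherryLow and 43.3% against mCherryHigh. Col25a1, found in neurons and amyloid plaques, was at 1.46, 20.8 and 1.94 CPM in mCherryLow, 10.9, 5.41 and 5.42 in mCherryHigh, and 47.2, 39.9 and 73.6 in DTC. The DTC libraries were above all others, by 3.29 (SE 0.77) and 2.75 (SE 0.53) (adjusted p = 0.00528 and 0.00460), the latter under all alternatives. Col23a1 was at 3.41, 0.282 and 0.759 CPM in mCherryLow, 0, 0.612 and 4.09 in mCherryHigh, and 58.6, 7.31 and 20.6 in DTC. It differed by 3.36 (SE 0.78) and 3.45 (SE 0.88) (adjusted p = 0.00528 and 0.0147, and 0.0733 for the latter without DTC 1). Col13a1, a synapse and junction chain, was at 0.488, 4.04 and 1.60 CPM in mCherryLow, 4.66, 0.102 and 1.33 in mCherryHigh, and 9.89, 7.79 and 15.2 in DTC. It was called with differences of 2.10 (SE 0.63) and 2.24 (SE 0.75). Against mCherryHigh it passed in 3 of 15 alternatives and was lost without any library but mCherryHigh 1 (adjusted p 0.065 to 0.169). Against mCherryLow it passed in 7 of 15, and was lost without mCherryLow 1, mCherryLow 6, DTC 1 or DTC 3 (adjusted p 0.0506 to 0.0778). Col17a1, the hemidesmosome collagen of epithelia, stayed between 1.55 and 6.09 CPM in all 9 libraries, with no call.

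The multiplexins, basement membrane collagens with cleavable anti-angiogenic ends, divided. Col15a1, of vessels and muscle, was at 2.93, 0.751 and 1.10 CPM in mCherryLow, 0, 1.33 and 2.15 in mCherryHigh, and 9.89, 6.33 and 20.6 in DTC. It rose by 2.30 (SE 0.63) and 2.63 (SE 0.73) (adjusted p = 0.0119 and 0.0205), and was not called without DTC 3 (adjusted p = 0.0501 and 0.0713) or, against mCherryHigh, without DTC 1 (0.0647). Col18a1, the source of endostatin, was at 214, 339.8 and 79.8 CPM in mCherryLow, 196, 659 and 223 in mCherryHigh, and 159.8, 388 and 19.5 in DTC, with no call. DTC 3 was again the lowest library. Col28a1, a late-found chain near nerves, was at 0.488, 0.563 and 2.28 CPM in mCherryLow, 3.11, 1.63 and 1.12 in mCherryHigh, and 7.61, 2.92 and 16.2 in DTC, and was called against mCherryLow alone (2.09, SE 0.66, adjusted p = 0.0238), not without mCherryLow 1, mCherryLow 5, DTC 1 or DTC 3 (adjusted p 0.071 to 0.0981).

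Of the laminin beta chains, 2 of 3 fell in DTC against mCherryLow and 3 of 3 against mCherryHigh, and none rose. The shares of all genes called lower were 8.87% and 7.19%. Lamb3, the epithelial beta chain of the laminin under hemidesmosomes, was at 62.4, 251 and 82.5 CPM in mCherryLow, 317, 424 and 113 in mCherryHigh, and 15.2, 46.8 and 18.4 in DTC. Every DTC library was below every other library. Lamb3 fell in both comparisons, with differences of -2.16 (SE 0.58) from mCherryLow (adjusted p = 0.0108) and -3.33 (SE 0.56) from mCherryHigh (adjusted p = 0.00287), the latter under all alternatives and the former not without DTC 1 (adjusted p = 0.0611). Lamb1, the common beta chain, was at 166, 353 and 253 CPM in mCherryLow, 203, 276 and 206 in mCherryHigh, and 104, 129.6 and 24.9 in DTC, and again DTC lay wholly below. Its differences were -1.80 (SE 0.56) from mCherryLow and -1.68 (SE 0.55) from mCherryHigh, with adjusted p of 0.0222 and 0.0391. The first was lost without mCherryLow 5 (0.0687), the other without any of 4 libraries: mCherryHigh 5, mCherryHigh 6, DTC 1 and DTC 3 (adjusted p 0.0564 to 0.0965). Both were also lost with quantile normalization and with depth cut to the shallowest library.

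Lamb2, the beta chain of vessels, synapses and the glomerulus, was at 29.3, 72.4 and 39.6 CPM in mCherryLow, 171, 280.2 and 74.2 in mCherryHigh, and 39.6, 33.1 and 0 in DTC. DTC 3 had 0 reads, and the bound of 3 reads taken for such a count stands for 3.25 CPM there. All mCherryHigh libraries were above all others, and Lamb2 fell in DTC, with a difference of -3.79 (SE 1.16) from mCherryHigh (adjusted p = 0.0301), though not without mCherryHigh 5 (0.0728) and not with DESeq2 (adjusted p = 0.0946). Against mCherryLow it did not pass.

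Laminin alpha chains, which carry the cell-binding end, went in both directions. Lama3, the epithelial partner of Lamb3, was at 2.93, 17.0 and 29.6 CPM in mCherryLow, 40.4, 36.7 and 47.7 in mCherryHigh, and 5.33, 3.41 and 5.41 in DTC. All mCherryHigh libraries were above all others, and Lama3 fell in DTC, with a difference of -2.91 (SE 0.53) from mCherryHigh (adjusted p = 0.00378), under all 15 alternatives. Against mCherryLow the value of -1.20 (SE 0.75) did not pass. Lama4, of vessels and fat, was at 14.6, 28.5 and 33.9 CPM in mCherryLow, 74.6, 62.9 and 57.4 in mCherryHigh, and 36.5, 40.9 and 49.8 in DTC. The 3 groups did not overlap, with DTC between the others, and no comparison passed: mCherryHigh minus mCherryLow was 1.38 (SE 0.39) with an unadjusted p of 0.00850 and an adjusted p of 0.451. Lama5, the most widespread epithelial alpha chain, was at 52.2, 64.7 and 34.8 CPM in mCherryLow, 101, 88.0 and 290.0 in mCherryHigh, and 108, 148 and 21.6 in DTC, with every mCherryHigh library above every mCherryLow library and no call.

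Lama1, of embryonic basement membranes, was at 0.488, 1.13 and 0 CPM in mCherryLow, 1.55, 0.102 and 0.102 in mCherryHigh, and 3.81, 6.82 and 15.2 in DTC. It rose by 2.53 (SE 0.61) and 2.54 (SE 0.70) (adjusted p = 0.00606 and 0.0206), the latter not without mCherryHigh 5, mCherryHigh 6 or DTC 3 (adjusted p 0.0716 to 0.0794). Lama2, the muscle chain, was at 0.488, 3.85 and 1.60 CPM in mCherryLow, 4.66, 0 and 2.45 in mCherryHigh, and 8.37, 7.31 and 17.3 in DTC. It passed against mCherryLow (2.08, SE 0.64, adjusted p = 0.0207), but not without mCherryLow 1, mCherryLow 6, DTC 1 or DTC 3 (adjusted p 0.0545 to 0.085). Neither edgeR nor DESeq2 called it (adjusted p = 0.129 and 0.0832). Lamc1, the gamma chain of most laminins, was at 100.4, 162 and 42.3 CPM in mCherryLow, 152, 79.0 and 127 in mCherryHigh, and 92.1, 210.5 and 44.4 in DTC. It was not called in any comparison and overlapped between all groups, and Lamc3 stayed between 1.03 and 7.58 CPM.

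**Figure D3:**
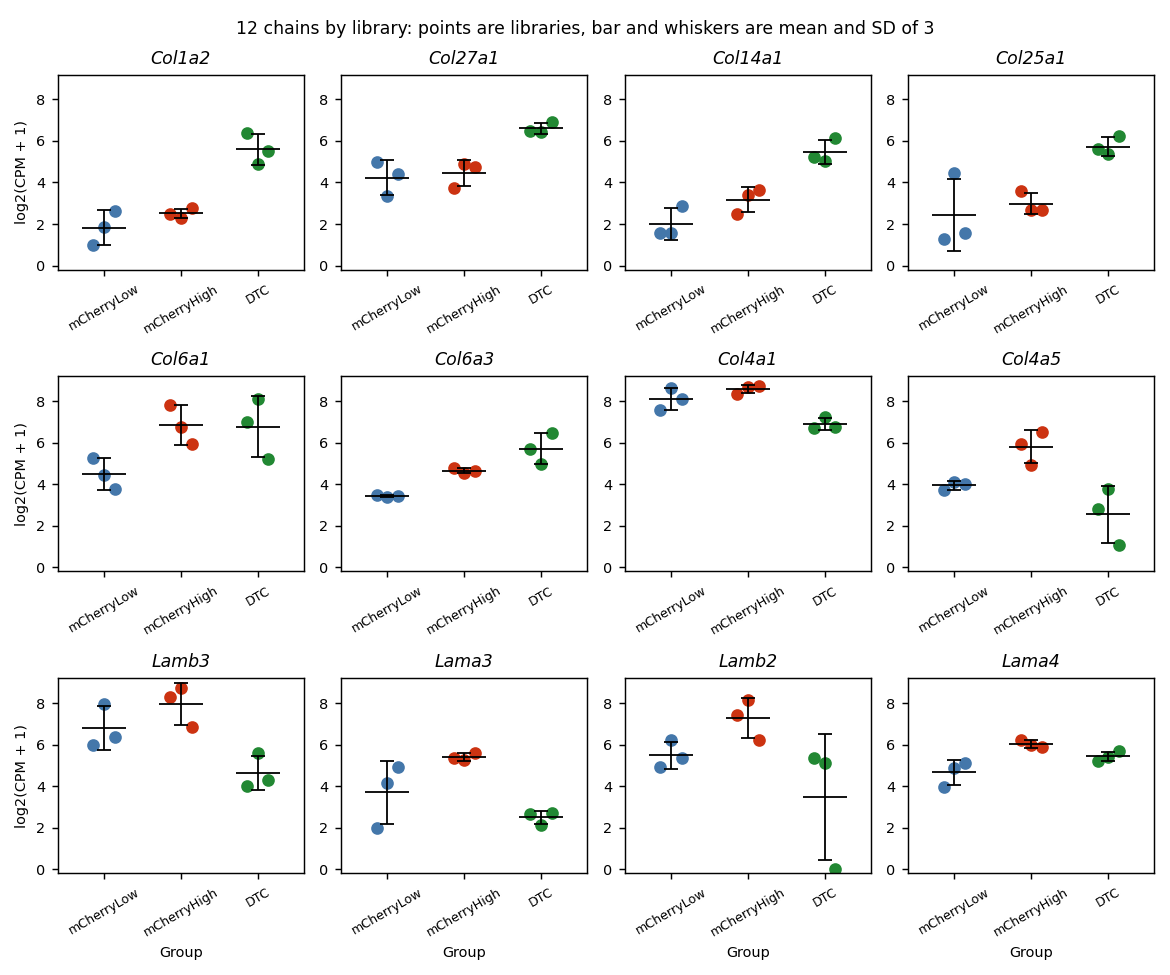
Level of 12 chains as log2(CPM + 1) in each library (points, ordered within a group by library number), with the mean and SD of 3 libraries in black. Col1a2, Col27a1, Col14a1 and Col25a1 sit highest in all 3 DTC libraries, Lamb3 and Col4a1 sit lowest there, and Col4a5, Lama3, Lamb2 and Lama4 are highest in the mCherryHigh libraries.

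For pairs of chains, most of them built into the same molecule, levels were set side by side per kilobase of the longest transcript in GENCODE M21, an annotation of a later build than mm9. The ratio of Col1a1 to Col1a2 was 3.88 to 32.5 in mCherryLow, 4.51 to 7.75 in mCherryHigh and 0.352 to 0.649 in DTC. Type I collagen needs more alpha 1 than alpha 2 chains, and in each DTC library Col1a2 was the more abundant mRNA. Lamb1 to Lamc1 gave 2.18 to 7.89, 1.76 to 4.60 and 0.739 to 1.49, and Col3a1 to Col5a2, fibrillar chains of different collagens (III and V), gave 3.69 to 10.1, 3.02 to 5.93 and 0.578 to 1.85. For these 3 of the 9 pairs looked at, every DTC library was below every other library; with 3 libraries a group and pairs picked with the values known, no test is given. Lamb3 to Lama3 overlapped between groups (6.04 to 46.2, 5.15 to 25.0 and 6.19 to 29.7). Col4a1 to Col4a2 was 205 in mCherryHigh 1 and 13.8 in DTC 3 and 1.22 to 2.54 in the other 7 libraries. Likewise Col6a1 to Col6a2 was 175 in mCherryHigh 1 and 1.83 to 5.65 elsewhere.

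**Figure D4:**
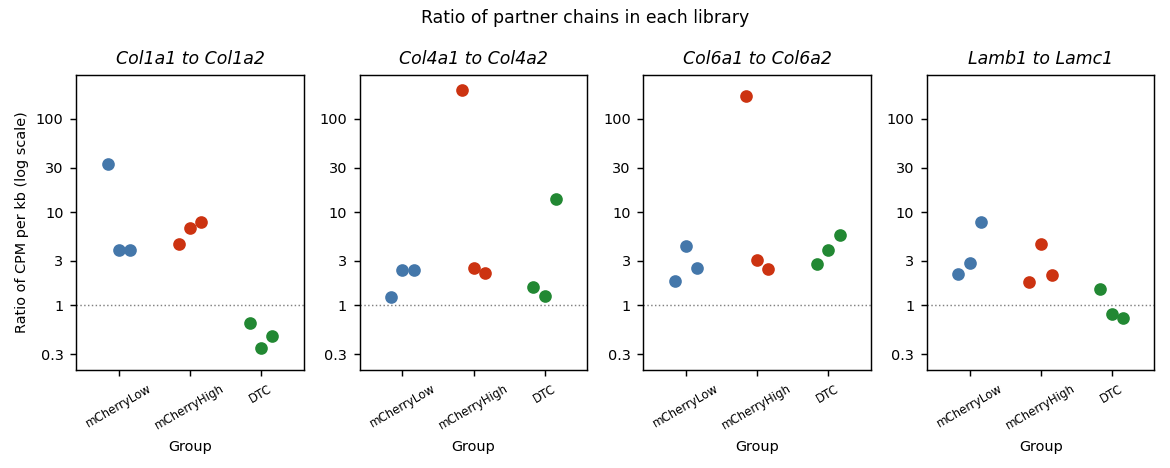
Ratio of CPM per kb of 4 pairs of partner chains in each library (points), on a log axis, with a dotted line at a ratio of 1. The DTC points lie below those of both mCherry groups for Col1a1 to Col1a2 and Lamb1 to Lamc1, and mCherryHigh 1 stands at 204.8 and 174.9 for Col4a1 to Col4a2 and Col6a1 to Col6a2.

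Many chains that rose in DTC were near 0 in the mCherry groups, as were many other genes. Among genes with a mCherryLow mean under 5 CPM, 66.9% of all 7777 tested were called higher in DTC, and 21 of 26 chains (80.8%). At 5 CPM or more the shares were 11% higher and 14.9% lower for 10924 genes, and 5 and 4 of 27 chains (18.5% and 14.8%). Olfactory receptor genes, which serve the nose and are not known as genes of these cells, were read as a comparison, and 303 of them averaged 0.133 to 0.502 CPM in mCherryLow, 0.215 to 3.15 in mCherryHigh and 4.59 to 11.6 in DTC. Their summed CPM over their summed length was 0.106, 0.410 and 2.62 CPM per kb as group means. In mCherryLow 48 of 54 chains were above that level, in mCherryHigh 44 and in DTC 31. Of the 26 chains called higher against mCherryLow, 14 were above it in DTC: Col6a1, Col27a1, Col1a2, Col25a1, Col14a1, Col5a2, Col6a3, Col23a1, Col10a1, Col19a1, Col2a1, Col13a1, Col4a3 and Col24a1. In every DTC library taken alone, 9 of the 26 were above the olfactory level of that library: Col1a2, Col5a2, Col6a1, Col6a3, Col13a1, Col14a1, Col19a1, Col25a1 and Col27a1. By the group means the other 12 were at or under it, among them Lama1, Lama2, Col15a1, Col6a4, Col6a5 and Col6a6. Per kilobase the most abundant chains were Lamb1 (44.5 CPM per kb), Col4a1 (43.7) and Col18a1 (37.7) in mCherryLow. In mCherryHigh they were Col18a1 (64.2), Lamb3 (58.5) and Col4a1 (58.3), and in DTC Col6a1 (35.7), Col18a1 (33.8) and Col5a3 (19.6). These DTC means rest on libraries 1 and 2. In DTC 3, Col4a1 (16.2) and Col27a1 (15.5) were the most abundant and Col6a1 was at 8.71, while Col18a1 (3.48) and Col5a3 (2.30) lay under the olfactory level of that library (3.76).

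**Figure D5:**
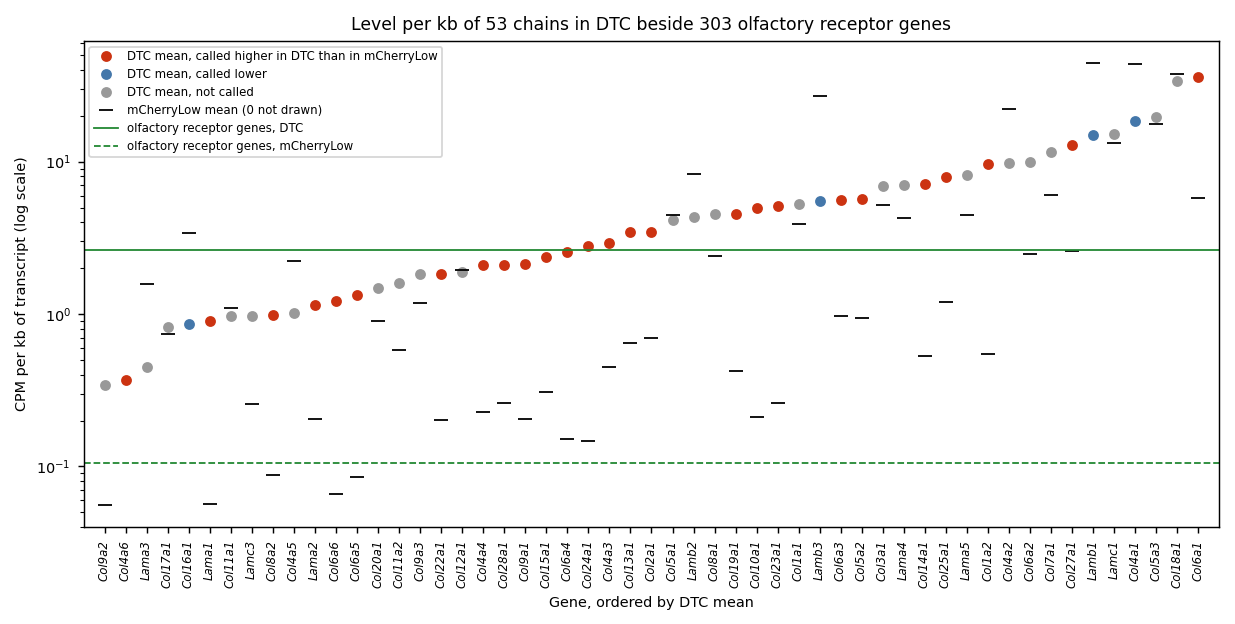
Mean DTC level of 53 of the chains in CPM per kb of transcript on a log axis (points, coloured by the call against mCherryLow), its mCherryLow mean (dashes), and the level of 303 olfactory receptor genes in DTC (2.62, solid line) and mCherryLow (0.106, dashed line). Of the red points, 14 lie above the solid line and 12 do not.

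The labels carry sample codes in series whose meaning is not stated, and mCherryHigh could be set against mCherryLow within 2 of them. In CFa10, mCherryHigh 1 minus mCherryLow 1, and in CFa12, mCherryHigh 5 minus the mean of mCherryLow 5 and 6, both differences were above 0 for 29 of 54 chains and both below 0 for 1. Each side of these is 1 or 2 libraries, with no test. The same count over all genes was not made, so it cannot be said whether 29 of 54 is particular to the chains. Over the 3 libraries of each group, 8714 of all 15437 genes tested were above 0 in this direction. In mCherryHigh 1, 25 of the 54 chains had 3 reads or fewer. Col6a1 gave 2.55 and 2.66, Lamb2 2.51 and 2.36, Col4a5 2.22 and 0.87, and Lama4 2.27 and 0.99 on the log2 scale. All DTC libraries are in CFa14 alone, so that series and the DTC group cannot be told apart.

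Genes that make, bind or accompany these chains were counted in 3 lists. Of 24 enzymes that modify, fold, trim or cross-link collagen, 4 rose and 9 fell in DTC against mCherryLow, with 3 and 8 called against mCherryHigh. Of all genes tested, 34.2% were called higher and 8.87% lower against mCherryLow, and 23.0% and 7.19% against mCherryHigh. Adamts3, which removes the amino-terminal propeptide, was 1.53 CPM in mCherryLow, 1.03 in mCherryHigh and 51.5 in DTC on average, a difference of 4.43 (SE 0.68) from mCherryLow (adjusted p = 0.000673). At a mCherryLow mean under 5 CPM, as for Adamts3, 66.9% of all genes rose. Glt25d1, which adds galactose to hydroxylysine, fell by 2.08 (means 389 and 91.7 CPM), and Plod1, a lysyl hydroxylase, fell by 2.31 (176 and 33.3 CPM). Against mCherryHigh, P4ha1, a prolyl hydroxylase subunit, and Plod3, a lysyl hydroxylase, fell, with differences of -1.98 and -2.22.

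Among 13 receptors tested, 1 rose and 5 fell in DTC in each comparison. The shares of all genes were 34.2% and 8.87% against mCherryLow, and 23.0% and 7.19% against mCherryHigh. Itgb1, the shared beta subunit of collagen and laminin integrins, had means of 1445 CPM in mCherryLow and 344 in DTC, and fell by 2.25. Itgb4, the hemidesmosome subunit that binds the laminin of Lama3 and Lamb3, fell by 2.56 against mCherryHigh (means 88.8 and 14.6 CPM). Itga7 and Itga2, which bind laminin and collagen, fell in that comparison, with differences of -3.36 and -2.79. Lair1, an inhibitory collagen receptor of leukocytes, rose by 2.46 over mCherryLow and was 26.4 CPM in DTC, where leukocyte markers were also high. Its mCherryLow mean was 4.23 CPM, and 66.9% of all genes under 5 CPM there rose. Bcam, a receptor for Lama5, fell by 2.40 against mCherryLow.

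Of 12 basement membrane partners, 3 rose and 0 fell against mCherryLow, where 34.2% and 8.87% of all genes did. Against mCherryHigh 3 rose and 2 fell, where 23.0% and 7.19% of all genes did. The 3 that rose were Fras1, Frem1 and Frem2, which form 1 complex at the epithelial basement membrane. Their mean CPM in mCherryLow, mCherryHigh and DTC were 1.68, 7.77 and 71.6 for Fras1, 3.07, 3.36 and 34.5 for Frem1 and 0.757, 1.41 and 15.2 for Frem2. All 3 mCherryLow means were under 5 CPM, a level at which 66.9% of all genes rose. In mCherryHigh those of Frem1 and Frem2 were under 5 CPM, where 43.3% of all genes rose. Fras1 was 4.72 above mCherryLow (SE 0.64, adjusted p = 0.000489) and 2.96 above mCherryHigh (SE 0.60, adjusted p = 0.00571). Between mCherryHigh and mCherryLow no gene of the 3 lists was called by limma. At an unadjusted p under 0.05, 3 receptors (Ddr1, Itgb4 and Itga7) and 2 partners (Fras1 and Smoc2) were higher in mCherryHigh and no enzyme was, where 6.08% of all genes were.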

How the data were processed

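RNA of sorted cells was extracted with a micro-scale column kit and made into SMART-seq libraries, per the labels' protocols. The values are CPM per gene as deposited by the authors, on mm9 per the submitters' processing notes, while aligner, counter, annotation and strand setting are named in none of the sources used here. Divided by the CPM of 1 read, 100% of the values in every library came out whole within 0.01 read, which gave the library totals. Floors and intervals cover counting error only, and reads without molecular identifiers are not independent molecules.

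Genes that reached 1 CPM in 3 or more of the 6 compared libraries were tested with limma 3.58.1 (R 4.3.3, trended variance) on log2(CPM + 1), with Benjamini-Hochberg adjustment over all genes and a threshold of 0.05. Each comparison was fitted on its own 6 libraries. A fold on this scale understates the change of low genes. Alternatives were other pseudocounts, filters and scalings, count tests of the whole reads (DESeq2 1.42.0, edgeR 4.0.16), depth cut to 643748 reads, and each library left out in turn. The procedure was tested on simulated data. Values in every library are printed for chains called in any comparison or averaging 10 CPM or more in a group, and the others are given by range. The values of 1 chain are not reported here, though the sums and counts over all chains hold it. Of the lists of related genes, up to 3 with the smallest p in a comparison are named. The chains and lists were chosen with earlier results of these data known. Lengths from GENCODE M21, a later build, matched 54 of 54 chains. Python 3.11.15 was used for sums and figures.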

Additional observations from a re-analysis of the deposited data

How the results depend on the processing

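Between mCherryHigh and mCherryLow the median difference of the chains was 0.61, with 0.44 at log2(CPM + 5), 0.45 with median-of-ratios scaling and 0.573 to 0.860 on leaving out each library. No chain was called in these, and DESeq2 called 2 higher. The fit with the replicate block, which pairs libraries by number, gave 0.61 and 0 calls. Correlations of same-numbered libraries were -0.20, -0.02 and 0.27, and those of differently numbered libraries -0.44 to 0.33. With 3 libraries in each group these values cannot settle whether libraries of the same number are paired. No paired analysis was possible for DTC because DTC shares only number 1 with the other groups. For DTC against mCherryLow the median of 1.68 became 0.75 at log2(CPM + 5), 1.35 with the 5 CPM filter, 0.39 with quantile normalization, 1.35 with median-of-ratios scaling, 0.93 after thinning and 1.07 to 1.66 on leaving out each library. Calls higher, 26 at first, were 5 with quantile normalization, 15 after thinning and 17 to 24 without a library, and calls lower, 4 at first, were 2 after thinning and 1 to 5 without a library (1 without mCherryLow 5 or DTC 1, and 2 without mCherryLow 6). Among the left-out libraries, the 17 came without DTC 1. For DTC against mCherryHigh the median of 0.88 became 0.45 at log2(CPM + 5), 0.18 with the 5 CPM filter, -0.002989 with quantile normalization, 0.50 after thinning and 0.47 to 0.908 on leaving out each library. Calls higher, 17 at first, were 3 with quantile normalization, 8 with edgeR, 11 after thinning and 6 to 19 without a library (9 without mCherryHigh 5, 7 without mCherryHigh 6 or DTC 3, 6 without DTC 1). Calls lower, 7 at first, were 4 to 8, with 4 without mCherryHigh 5. The median of all genes for DTC against mCherryLow became 0.27 under size factors and -0.14 under quantiles. The cause of these shifts was not tested. For single chains, 82 alternative values against mCherryLow lost the call and 351 did not, 91 and 267 against mCherryHigh, and 0 reversed.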
